A study of Mus musculus with 6 samples.

Results

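The 10 genes described here, Cxcl13, Ccl19, Ccl21a, Glycam1, Madcam1, Chst4, Mfge8, Clu, Ccr7 and Ubd, were grouped as lymphoid follicle stroma and venule genes. They were taken by name out of 23402 genes measured in mouse terminal ileum. The name of the group does not hold for every member, since Ccr7 is a receptor of lymphocytes and dendritic cells and Ubd is induced by interferon-gamma. They were chosen by name and in part on their FPKM values, because several of them were high together in a pair of libraries, so their values in the 6 libraries are given as a description, without a test. RNA of whole terminal ileum, the last stretch of the small intestine, was sequenced from 6 mice, with 1 library per mouse. All were 6 weeks old and had drunk water with dextran sodium sulfate (DSS, a polysaccharide that injures the gut epithelium) up to day 6. The 3 Cre-positive mice were Il17rafl/fl;Atoh1-cre+, and the 3 Cre-negative mice were littermates of the strain Il17rafl/fl;Atoh1-cre-. All 6 thus carried floxed alleles of Il17ra, a subunit of the interleukin-17 receptor, and all 6 received DSS. Cre driven by Atoh1 acts in the secretory lineage of the gut epithelium (Paneth, goblet and enteroendocrine cells), and stromal, endothelial and lymphoid cells lie outside that lineage. No animals without DSS were analysed here.

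Organised lymphoid follicles of the ileum, such as Peyer's patches, are held together by stromal cells that secrete homeostatic chemokines. Follicular dendritic cells and their relatives make CXCL13, which draws B cells through the receptor CXCR5, while reticular cells and venules of the T cell zone present CCL19 and CCL21, which draw T cells and dendritic cells through CCR7. Lymphocytes leave the blood through high endothelial venules, whose adhesion molecules include MAdCAM-1, a ligand of integrin alpha4beta7, and GlyCAM-1, and the upkeep of this stroma depends on lymphotoxin and the non-canonical NF-kB pathway. Whole tissue holds all of these cells at once, so a higher value can stand for more cells of a type or for more RNA per cell, and the 2 cannot be told apart.

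The upstream sequences of 4 of the genes are shown because they hold matches to binding motifs of NF-kB, which the lymphotoxin pathway activates, and because these genes had unlike levels in the same libraries. Promoters of 8 of the 10 genes were found in the RefSeq table (GRCm38.p6). Each line gives the 250 bases before the start in RefSeq, on the strand of the gene, in lower case with the motif matches in capitals. The windows are chr5:95956689-95956938 (plus strand) for Cxcl13, chr4:42756366-42756615 (minus strand) for Ccl19, chr10:79664309-79664558 (plus strand) for Madcam1 and chr17:37193642-37193891 (plus strand) for Ubd. For Ccl19 the RefSeq start lies inside the gene as GENCODE annotates it, so most of that window is within the GENCODE gene, and positions are counted from the RefSeq start.
Cxcl13: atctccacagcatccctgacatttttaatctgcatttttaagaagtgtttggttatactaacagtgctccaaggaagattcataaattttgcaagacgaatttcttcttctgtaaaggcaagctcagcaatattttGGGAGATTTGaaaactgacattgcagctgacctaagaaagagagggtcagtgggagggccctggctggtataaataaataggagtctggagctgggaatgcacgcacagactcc
Ccl19: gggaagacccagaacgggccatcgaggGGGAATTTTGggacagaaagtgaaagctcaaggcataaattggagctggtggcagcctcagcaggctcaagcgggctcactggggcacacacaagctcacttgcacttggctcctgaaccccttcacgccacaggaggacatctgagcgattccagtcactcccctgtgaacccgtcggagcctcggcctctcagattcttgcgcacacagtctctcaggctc
Madcam1: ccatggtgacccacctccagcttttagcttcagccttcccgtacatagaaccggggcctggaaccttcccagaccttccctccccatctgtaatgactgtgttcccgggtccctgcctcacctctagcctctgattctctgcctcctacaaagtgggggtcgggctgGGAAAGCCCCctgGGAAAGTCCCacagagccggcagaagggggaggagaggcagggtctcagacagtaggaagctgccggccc
Ubd: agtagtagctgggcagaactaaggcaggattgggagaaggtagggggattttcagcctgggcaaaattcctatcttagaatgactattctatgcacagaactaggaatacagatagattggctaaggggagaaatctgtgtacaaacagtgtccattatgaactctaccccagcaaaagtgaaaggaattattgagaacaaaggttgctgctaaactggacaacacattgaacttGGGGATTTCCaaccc
The consensus of NF-kB, searched on both strands, had 2 matches on the minus strand of the Madcam1 window, at positions -83 to -74 and -70 to -61 before the start. It had 1 match in the Ubd window, at positions -15 to -6. Of the 8 windows, 2 held it, against 7.25% of 32851 mouse promoter windows of the same length. A motif of GGGA, 2 bases of any kind and TTTG, a form in which the Cxcl13 promoter binds the RelB subunit and which was chosen with that promoter known, matched at -114 to -105 in Cxcl13 and at -223 to -214 in Ccl19, against 1.21% of all windows. These matches do not overlap each other. The motif ATAAAT was found in 4 of the 8 windows (12.5% of all windows). In Ccl21a it lay at -30 to -25, in Glycam1 at -31 to -26 and in Ccl19 at -189 to -184. In Cxcl13 it lay at -45 to -40, overlapping a further match at -41 to -36, with another at -169 to -164. A match describes letters only and was not tied to binding in these samples.

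Between 16317 and 16547 genes were listed above 0 in each library, and the steps between low values corresponded to an estimated 8620000 to 9920000 fragments in Cre-positive libraries and 9360000 to 10140000 fragments in Cre-negative libraries. Il17ra stood at 7.93, 8.36 and 6.07 FPKM in the Cre-positive libraries, against 6.04, 5.91 and 6.53 FPKM in the Cre-negative ones, so this gene did not separate the labels in whole tissue and the groups are those of the labels. FPKM scales the fragments of a gene to transcript length and library size, so levels can be set beside each other across genes. Defining genes of terminal ileum were low, with the bile acid binding protein gene Fabp6 between 0.316 and 2.41 FPKM in Cre-positive and between 0.316 and 9.79 FPKM in Cre-negative libraries, while the general enterocyte gene Apoa1 was between 1728 and 5747 FPKM in Cre-positive and between 2782 and 5837 FPKM in Cre-negative libraries. By limma's moderated test with Benjamini-Hochberg adjustment, 0 of 12695 tested genes passed an adjusted p of 0.05 (0% higher and 0% lower), and 459 had an unadjusted p under 0.05. The number past the adjusted threshold was 46 without Cre-positive 3, 24 with array weights and at most 2 under every other alternative run. Across the 6 libraries, Xist was present in Cre-positive 2, Cre-positive 3 and Cre-negative 3 and Ddx3y in the other 3, so Cre-positive 1 was male and Cre-positive 2 female by these genes.

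In 8 of the 10 genes, Cre-positive 1 and Cre-positive 2 were the 2 highest libraries, and Cre-positive 3 lay within or below the Cre-negative range, except that it was just above it for Ccr7. These were the 3 chemokine genes, Ccr7, Glycam1, Madcam1, Mfge8 and Clu. Among all tested genes, 7.88% had these as the 2 highest libraries. In 6 of the 8 (Cxcl13, Ccl19, Glycam1, Mfge8, Clu and Ccr7), both were at least 2-fold above every other library, which held for 0.433% of tested genes. The choice of the genes used this pattern, so nothing is read from these shares. Chst4 and Ubd did not share it, and for Ubd the same libraries were the 2 lowest, as for 4.03% of tested genes. All 10 genes passed the filter of a mean of 1 FPKM, Glycam1, Ccl19 and Ccr7 only through Cre-positive 1 and 2. The groups were free of overlap for Ccr7 alone among the 10, against 5.77% of tested genes that were higher in this way and 2.60% that were lower.

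**Figure D1:**
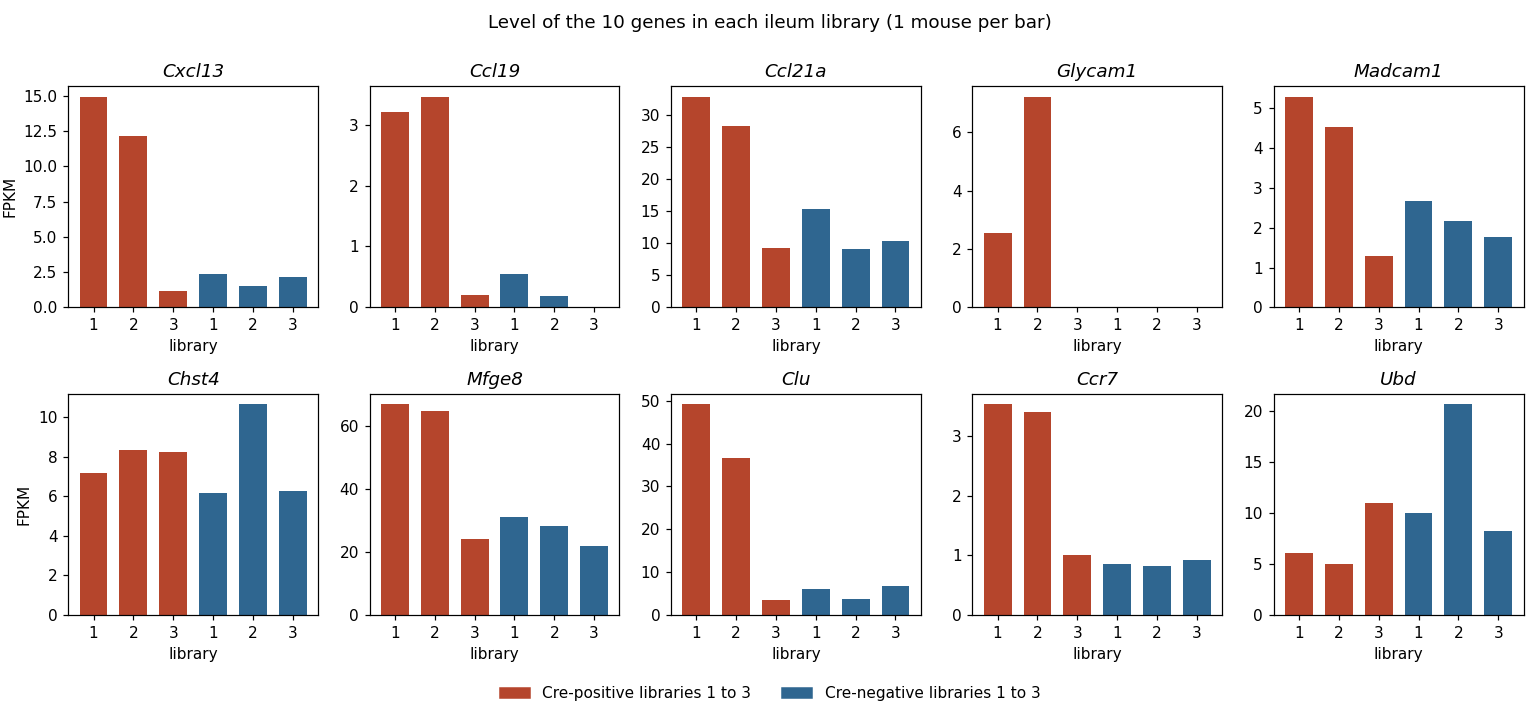
Level of each of the 10 genes in FPKM (vertical axis, from 0) in the 3 Cre-positive (red) and 3 Cre-negative (blue) libraries, 1 bar per mouse. In 8 panels the bars of Cre-positive 1 and 2 stand above the other 4, while for Chst4 they do not and Ubd is lowest in these libraries. The groups overlap in every panel except that of Ccr7.

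Cxcl13 (chromosome 5 from 95956951 to 95961068, GRCm38), the B cell chemokine of the follicle, stood at 14.9, 12.1 and 1.16 FPKM in the Cre-positive libraries. In the Cre-negative libraries it stood at 2.38, 1.53 and 2.13 FPKM. The Cre-positive group holds both the highest values and the lowest one. The means were 9.41 ± 7.28 FPKM in Cre-positive and 2.01 ± 0.436 FPKM in Cre-negative libraries (SD, n = 3 each), a ratio of 4.67. On the log2(FPKM + 1) scale, which understates the change of low genes, the fold change was 1.36 (SE 0.67). The values rest on an estimated 146, 109 and 10 fragments in Cre-positive and 24, 15 and 20 in Cre-negative libraries, so the high values of Cre-positive 1 and 2 do not rest on a few fragments.

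Ccl19 (chromosome 4 from 42754525 to 42756577), a chemokine of the T cell zone, was listed at 3.20, 3.46 and 0.210 FPKM in the Cre-positive libraries, against 0.549, 0.189 and 0 FPKM in the Cre-negative ones. It was thus close to the detection limit in 4 libraries, with an estimated 0 to 3 fragments there and 15 to 19 in each of Cre-positive 1 and 2. Its log2 fold change was 1.21 (SE 0.48), and it was 2.53 with 0.1 FPKM added in place of 1 and 0.44 with 5 FPKM added. Ccl21a (chromosome 4 from 42772860 to 42773993), the second ligand of CCR7, had 32.8, 28.2 and 9.20 FPKM in Cre-positive libraries and 15.4, 9.09 and 10.3 FPKM in Cre-negative libraries. It was the most abundant of the 3 chemokines in every library. The lower of Cre-positive 1 and 2 stood 1.83-fold above the highest of the other 4, against 5.09-fold for Cxcl13 and 5.83-fold for Ccl19. Near-identical copies of Ccl21a exist in the mouse genome, and the sources used here do not give how their fragments were shared out. Of these copies Ccl21b, Gm13304 and Gm21541 were listed at 0 in all 6 libraries and Gm1987 between 0.164 and 0.200 FPKM in Cre-positive and between 0.157 and 0.183 FPKM in Cre-negative libraries. GENCODE also places 4930578G10Rik across Ccl19 and Ccl21a on the opposite strand, and whether strand was used in counting is likewise not given.

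Ccr7 (chromosome 11 from 99144196 to 99155077), the receptor for CCL19 and CCL21 on naive lymphocytes and mature dendritic cells, stood at 3.52, 3.41 and 1.01 FPKM in Cre-positive libraries. The Cre-negative libraries had 0.862, 0.830 and 0.930 FPKM. Cre-positive 3 was here just above the Cre-negative range, by an estimated 16 fragments against 16, 15 and 16, so this order is within counting error. The log2 fold change was 0.87 (SE 0.30), or 0.36 with 5 FPKM added. Among the 10 genes, Ccr7 had the smallest spread among Cre-negative libraries (0.874 ± 0.0515 FPKM, SD, n = 3) apart from Glycam1, which was at 0.

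Of the venule genes, Glycam1 (chromosome 15 from 103562759 to 103565081), a mucin-like glycoprotein of high endothelial venules, was listed at 2.53, 7.21 and 0 FPKM in Cre-positive libraries and at 0 in all 3 Cre-negative libraries. It is the only member at 0 in 4 libraries, and no fold is given against a group at 0. Cre-positive 2 exceeded Cre-positive 1 here (ratio of Cre-positive 1 to Cre-positive 2, 0.351), where the other 7 genes of the pattern had ratios between 0.925 and 1.34. With the shortest annotated transcript the 2 values correspond to about 9 and 24 fragments, and with longer transcripts to more. Madcam1 (chromosome 10 from 79664559 to 79668537), the mucosal addressin that binds integrin alpha4beta7, had 5.29, 4.52 and 1.28 FPKM in Cre-positive libraries and 2.66, 2.17 and 1.77 FPKM in Cre-negative libraries. It had the smallest gap of the 8, with the lower of Cre-positive 1 and 2 at 1.70-fold the highest other library, and Cre-positive 3 was the lowest of all 6. The log2 fold change was 0.43 (SE 0.36).

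Chst4 (chromosome 8 from 110029153 to 110039740) encodes a sulfotransferase that sulfates adhesion ligands of high endothelial venules. Its values were 7.17, 8.31 and 8.22 FPKM in Cre-positive libraries and 6.16, 10.6 and 6.25 FPKM in Cre-negative libraries. The groups overlapped, with the highest and the lowest value both in the Cre-negative group, and the log2 fold change of 0.07 (SE 0.19) became 0.30 when Cre-negative 2 was left out, -0.05 when Cre-negative 1 was and -0.04 when Cre-negative 3 was. In the 4 libraries where Glycam1 was at 0, Chst4 lay between 6.16 and 10.6 FPKM. The level of Chst4 thus did not follow those of Glycam1 and Madcam1. It was not alone in this among venule genes. In the venule list described below, 2 of 8 tested genes had Cre-positive 1 and 2 as the 2 highest libraries, 0 of them at 2-fold. Which cells of the tissue made the RNA of Chst4 was not tested.

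Mfge8 and Clu are secreted glycoproteins made by follicular dendritic cells and by other cells. Mfge8 (chromosome 7 from 79133768 to 79149060), which bridges apoptotic cells to phagocytes, was the most abundant of the 10 genes in every library. It stood at 66.9, 64.7 and 24.3 FPKM in Cre-positive libraries, against 31.2, 28.4 and 21.8 FPKM in Cre-negative libraries (log2 fold change 0.79, SE 0.36). Clu (chromosome 14 from 65968483 to 65981547), the chaperone clusterin, stood at 49.1, 36.7 and 3.62 FPKM in Cre-positive libraries, against 6.00, 3.85 and 6.73 FPKM in Cre-negative libraries. Cre-positive 3 was the lowest library for Clu, so the Cre-positive group again holds both ends of the range. The log2 fold change of Clu was 1.69 (SE 0.80), beside a Cre-positive SD of 23.5 FPKM on a mean of 29.8 FPKM.

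Ubd (chromosome 17 from 37193892 to 37196095) encodes FAT10, a ubiquitin-like modifier that marks proteins for the proteasome and is induced by interferon-gamma and tumour necrosis factor. It ran against the other members, with 6.11, 5.03 and 10.9 FPKM in Cre-positive libraries and 9.96, 20.6 and 8.27 FPKM in Cre-negative libraries. The groups overlapped through Cre-positive 3, and the highest value was that of Cre-negative 2. The log2 fold change was -0.70 (SE 0.35), and -0.33 without Cre-negative 2. Of 10 interferon-gamma and immunoproteasome genes, 0 passed the test in either direction and the median log2 fold change was 0.03, as over all tested genes, and -0.01 with median-of-ratios scaling. None of the 10 had Cre-positive 1 and 2 as the 2 highest libraries. The proteasome subunit gene Psmb9 stood at 53.0, 51.2 and 69.3 FPKM in Cre-positive libraries and 70.7, 59.7 and 37.3 FPKM in Cre-negative libraries.

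Over the 10 genes the median log2 fold change was 0.84, with 9 estimates above 0. Over all tested genes the median was 0.03, with 7414 of 12695 estimates above 0. The choice of the 10 genes used their values in these libraries, so nothing is read from this contrast. Leaving out Cre-positive 3 gave a median of 1.31, and adding 5 FPKM in place of 1 gave 0.53. Leaving out Cre-positive 1 gave 0.55 over 9 genes, since Ccl19 then fell under the filter, and leaving out Cre-positive 2 gave 0.58 over 8 genes, without Ccl19 and Glycam1. The log2 fold change of Cxcl13 was 0.83 when Cre-positive 1 was left out and 2.27 when Cre-positive 3 was, and that of Clu was 1.04 and 2.76. For Ccl21a these values were 0.49 and 1.35, and for Madcam1 they were 0.16 and 0.89, with 0.25 when Cre-positive 2 was left out. Without Cre-positive 3, Ccl19 had a log2 fold change of 1.82 and Mfge8 one of 1.26. The size of these differences thus depended on which Cre-positive mice were counted. No single mouse left out turned the direction of the 8 genes where a value could be had. This leaves out Ccl19 without Cre-positive 1 or 2 and Glycam1 without Cre-positive 2. The choice of the genes used their high values in Cre-positive 1 and 2, so this direction was largely set in advance and nothing is read from it.

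**Figure D2:**
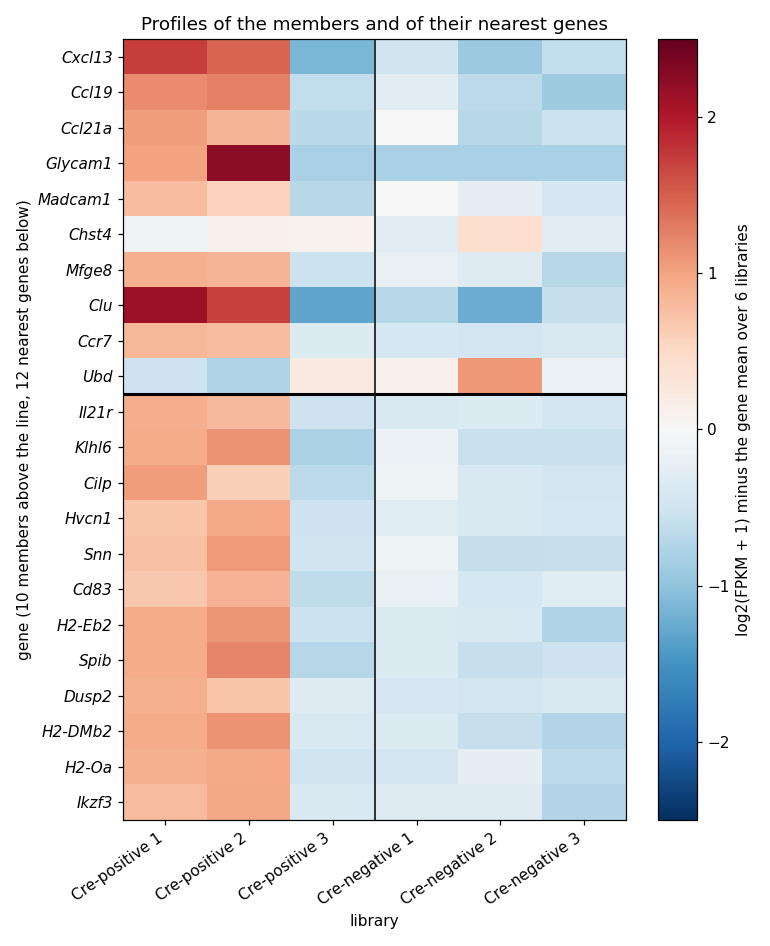
Colour gives log2(FPKM + 1) minus the mean of the gene over the 6 libraries (columns). The 10 members are above the line. Below it are the 12 genes, of those searched, whose profile lay nearest to the median profile of the members. The median profile was 0.95, 0.84 and -0.65 in Cre-positive 1 to 3, and the nearest genes are red in Cre-positive 1 and 2 and blue in the other 4 columns.

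The genes with the most similar profile were found by the root mean square distance over the 6 libraries between centred log2(FPKM + 1) values and the median profile of the 10 members. Mfge8 (0.128) and Ccl21a (0.133) were the members closest to that median, and Ubd (1.19) the farthest. Predicted or clone-named loci, small RNAs and segments of immunoglobulin and T cell receptor genes were left out of the search. The 12 nearest other genes of those searched lay between 0.127 and 0.186. They were Il21r (the interleukin-21 receptor), Klhl6, Cilp, Hvcn1 (a proton channel of B cells), Snn, Cd83 (an activation marker of dendritic cells and lymphocytes), H2-Eb2, Spib (a transcription factor of B cells and M cells), Dusp2, H2-DMb2, H2-Oa (a subunit of the MHC class II regulator H2-O) and Ikzf3 (the lymphoid transcription factor Aiolos). Il21r stood at 4.06, 3.75 and 0.887 FPKM in Cre-positive libraries and 1.03, 1.14 and 0.946 FPKM in Cre-negative libraries. Cilp, which encodes a secreted matrix protein, stood at 4.28, 2.85 and 0.628 FPKM in Cre-positive libraries and 1.33, 0.969 and 0.841 FPKM in Cre-negative libraries. Of the 12, 3 stand in the lists of related genes, and 3 (Il21r, Cilp and Dusp2) were higher in Cre-positive 1 than in Cre-positive 2. Nearest to the profile of Ubd, in a search made after its values were seen, was Rps27 (distance 0.242), and nearest to that of Chst4 was Bcl2l12 (0.0979).

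Several receptors that pair with the members had their highest values in the same libraries, though 0 of the 160 tested genes of the 19 lists of related genes passed limma's test in either direction (smallest adjusted p = 0.998). Without Cre-positive 3, 17 of the list genes passed it. Of 12 lymphocyte homing receptors, all 12 estimates were above 0 (median 0.45, 5 genes with an unadjusted p under 0.05) and 9 had Cre-positive 1 and 2 as the 2 highest libraries. The median was 0.18, over 9 genes, without Cre-positive 2. Over all tested genes, 7414 of 12695 estimates were above 0 and 459 had an unadjusted p under 0.05. Cre-positive 1 and 2 were the 2 highest libraries in 7.88% of them. The same shares apply to the counts of the lists below. The lists were chosen with earlier results of these data known, so nothing is read from these contrasts. Cxcr5, the receptor for CXCL13, had 3.12, 3.34 and 0.0466 FPKM in Cre-positive libraries and 0.0792, 0.244 and 0.0857 FPKM in Cre-negative libraries. It was several times higher in Cre-positive 1 and 2 than in any of the other libraries. Cxcr4, the receptor for CXCL12, had 7.27, 9.59 and 3.47 FPKM in Cre-positive libraries and 2.84, 2.55 and 2.30 FPKM in Cre-negative libraries. Its groups were free of overlap, as were those of 5.77% of tested genes in this direction. Ccr6, the receptor for CCL20, had 2.58, 3.50 and 0.656 FPKM in Cre-positive libraries and at most 0.776 FPKM in Cre-negative libraries. The integrin genes behind MAdCAM-1 binding differed less. Itga4 had 9.21, 10.8 and 6.83 FPKM in Cre-positive libraries and 7.70, 7.09 and 6.05 FPKM in Cre-negative libraries. Itgb7 had 8.57, 9.61 and 7.23 FPKM in Cre-positive libraries and 6.34, 7.14 and 6.19 FPKM in Cre-negative libraries. Ackr4, a scavenger of CCL19 and CCL21 listed under its older symbol Ccrl1, had 3.43, 2.45 and 3.17 FPKM in Cre-positive and 3.01, 3.24 and 2.33 FPKM in Cre-negative libraries, without the pattern.

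The lymphotoxin genes Ltb and Lta showed the pattern, Lta at low levels, and other genes of the lymphotoxin and non-canonical NF-kB list were mixed. Ltb stood at 6.45, 10.9 and 1.12 FPKM in Cre-positive libraries, against 2.77, 1.75 and 1.83 FPKM in Cre-negative libraries (log2 fold change 0.89, SE 0.55, limma adjusted p = 0.998). Lta, below the filter, was listed at 0.496, 0.717 and 0.0943 FPKM in Cre-positive libraries and at 0, 0 and 0.0868 FPKM in Cre-negative libraries. Ltbr, the lymphotoxin beta receptor, had 43.6, 46.5 and 54.9 FPKM in Cre-positive libraries and 50.2, 50.3 and 44.2 FPKM in Cre-negative libraries. Relb, a subunit of non-canonical NF-kB, had 30.4, 19.2 and 17.2 FPKM in Cre-positive libraries and 19.4, 19.3 and 34.7 FPKM in Cre-negative libraries. Neither Ltbr nor Relb was highest in Cre-positive 1 and 2 together. Tnfrsf13c, the BAFF receptor of B cells, had the pattern, with 5.62, 5.60 and 0.723 FPKM in Cre-positive libraries and 0.729, 0.288 and 0.484 FPKM in Cre-negative libraries. Tnfrsf1b had 5.5, 7.2 and 6.2 FPKM in Cre-positive libraries and 5.1, 4.9 and 4.4 FPKM in Cre-negative libraries. Map3k14 had 3.3, 4.2 and 3.6 FPKM in Cre-positive libraries and 3.1, 2.8 and 2.9 FPKM in Cre-negative libraries. Both were free of overlap, as were 5.77% of tested genes in this direction, and both were higher in Cre-positive 3 than in Cre-positive 1. Of 13 tested genes of this list, 8 estimates were above 0 and 2 had an unadjusted p under 0.05, and the median was 0.08, or -0.0036 when only genes with a mean of 5 FPKM were kept.

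Markers of the follicular dendritic cell followed in part. Cr2 and Fcer2a, complement receptor 2 and the low-affinity IgE receptor, which B cells also make, were near 0 in 4 libraries. Cr2 had 3.50, 4.83 and 0.0376 FPKM in Cre-positive libraries and 0.0319, 0.0164 and 0.0693 FPKM in Cre-negative libraries. Vcam1, an adhesion molecule, had 6.20, 3.98 and 2.43 FPKM in Cre-positive libraries and 2.72, 2.64 and 2.56 FPKM in Cre-negative libraries. Of 9 tested genes of this list, 7 had Cre-positive 1 and 2 as the 2 highest libraries, against 7.88% of all tested genes. In 3 of the 9 (Cr2, Fcer2a and Cilp) both were at least 2-fold above every other library. The lower of the 2 stood 1.07-fold above the highest other library for Fcgr2b and 1.46-fold for Vcam1. By limma, 3 genes of the list had an unadjusted p under 0.05, and the median log2 fold change was 0.36. The median was 0.18 without either Cre-positive 1 or Cre-positive 2, and 0.0027 when only genes with a mean of 5 FPKM were kept. General reticular cell genes shared it in 2 of 9 cases, and their median was -0.09, which turned to 0.03 without Cre-positive 3 and to 0.02 after rescaling to an equal sum. Pdpn (podoplanin) had 3.93, 4.06 and 2.71 FPKM in Cre-positive libraries and 4.33, 3.82 and 3.74 FPKM in Cre-negative libraries.

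Other venule genes differed less between the libraries or were barely detected. Fut7, a fucosyltransferase of venule adhesion ligands, lay at or under 0.215 FPKM in Cre-positive and 0.122 FPKM in Cre-negative libraries, and Sele (E-selectin) at or under 0.0783 FPKM in Cre-positive and 0.0362 FPKM in Cre-negative libraries. Gcnt1, a branching enzyme for the same ligands, had 2.71, 2.77 and 1.41 FPKM in Cre-positive libraries and 1.65, 1.58 and 1.53 FPKM in Cre-negative libraries. Of the 12 venule list genes, 8 could be tested, with a median log2 fold change of 0.12 that was -0.10 without Cre-positive 2. Darc (Ackr1), a chemokine-binding protein of venules, had 2.04, 4.76 and 2.09 FPKM in Cre-positive libraries and 2.19, 2.56 and 2.13 FPKM in Cre-negative libraries, high in Cre-positive 2 alone. Blood endothelial genes were highest in Cre-positive 2 by summed level (92.3, 149 and 80.8 FPKM in Cre-positive libraries and 102, 114 and 88.3 FPKM in Cre-negative libraries). Pecam1 had 16.2, 24.0 and 13.0 FPKM in Cre-positive libraries and 14.5, 15.9 and 12.9 FPKM in Cre-negative libraries, and the median of the list was 0.09, which turned to -0.12 when Cre-positive 2 was left out and to -0.0079 when Cre-negative 3 was. Lymphatic endothelial genes, which mark another source of CCL21, had a median of 0.0011, which was -0.03 with median-of-ratios scaling and -0.07 with quantile normalization. Prox1 stood at 1.69, 1.86 and 1.72 FPKM in Cre-positive libraries and at 1.77, 1.12 and 2.00 FPKM in Cre-negative libraries.

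**Figure D3:**
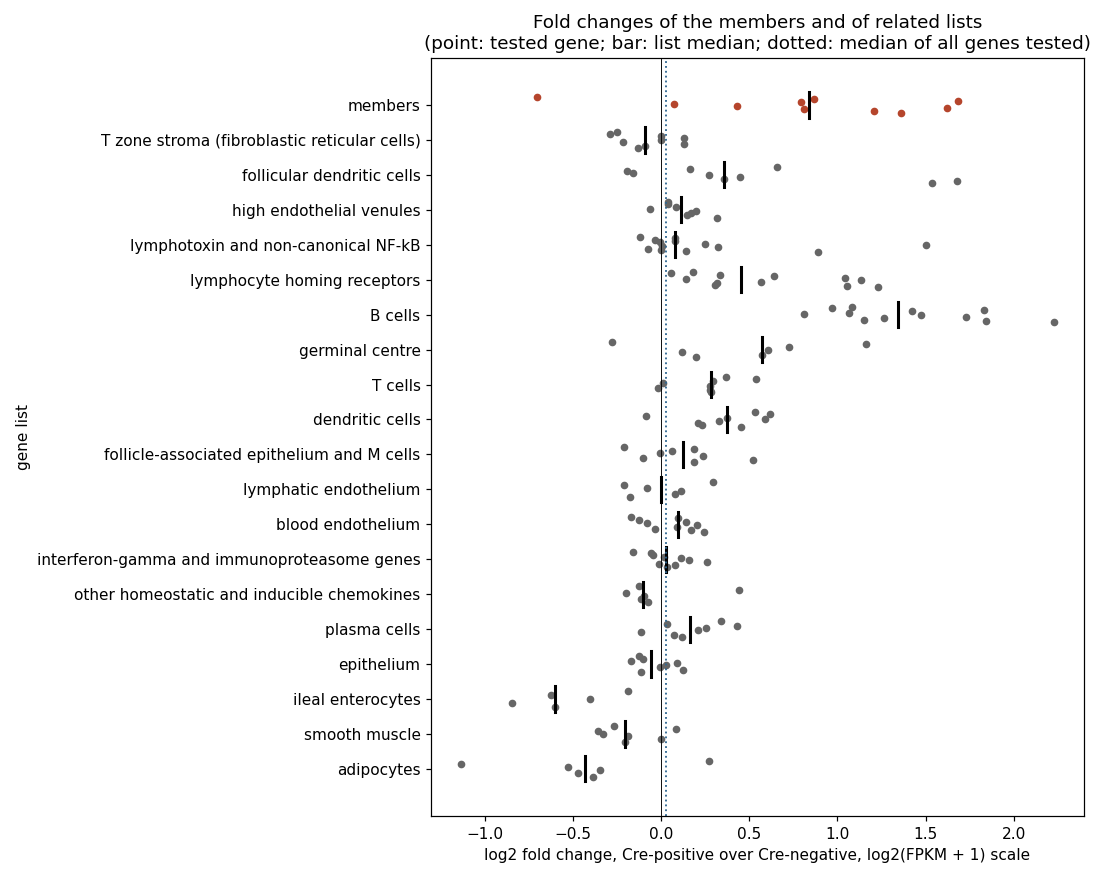
Log2 fold change of Cre-positive over Cre-negative libraries on the log2(FPKM + 1) scale (horizontal axis) for the tested genes of each list, with 1 point per gene, a bar at the list median and a dotted line at the median of all genes tested (0.03). The members (median 0.84, Ubd far left) and the B cell list (1.34) lie farthest right, but the members were chosen in part on these values. The point of Glycam1 depends on the 1 FPKM added because it is at 0 in all Cre-negative libraries.

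B cell genes had the same pattern. All 12 of that list had Cre-positive 1 and 2 at least 2-fold above every other library, which held for 0.433% of all tested genes. The summed level of the list was 107, 132 and 19.0 FPKM in Cre-positive libraries and 25.7, 22.7 and 13.9 FPKM in Cre-negative libraries. Pax5, a defining B cell factor, was listed at 0 in Cre-positive 3 and in Cre-negative 2 and 3. Ms4a1 (CD20) had 9.37, 11.3 and 0.302 FPKM in Cre-positive libraries and 0.155, 0.264 and 0.111 FPKM in Cre-negative libraries. The median log2 fold change was 1.34, with 9 of 12 genes at an unadjusted p under 0.05, and the part of B cells in the levels of the 10 genes was not tested. Germinal centre genes included Il4i1, an amino acid oxidase, at 4.39, 3.97 and 2.19 FPKM in Cre-positive libraries and 1.19, 1.17 and 0.613 FPKM in Cre-negative libraries, and S1pr2, a receptor that keeps B cells in the germinal centre, at 3.40, 3.08 and 1.76 FPKM in Cre-positive libraries and 1.57, 1.58 and 1.27 FPKM in Cre-negative libraries. For both, the Cre-positive libraries were all above the Cre-negative ones, as for 5.77% of all tested genes. Nuggc of the same list had 1.6, 1.8 and 1.6 FPKM in Cre-positive libraries and at most 0.747 FPKM in Cre-negative libraries, so Cre-positive 3 was not low. Of 7 tested germinal centre genes, 6 estimates were above 0 (median 0.57) and 3 had an unadjusted p under 0.05 by limma. Cre-positive 1 and 2 were the 2 highest libraries in 3 of the 7, and 0 were at least 2-fold above the others. The median was 0.22 with 5 FPKM added and 0.12, over 3 genes, when only genes with a mean of 5 FPKM were kept. T cell genes had a summed level of 52.2, 45.4 and 24.8 FPKM in Cre-positive libraries and 30.9, 34.4 and 30.3 FPKM in Cre-negative libraries, with a median log2 fold change of 0.28. That median was 0.13 without Cre-positive 1, 0.16 without Cre-positive 2 or Cre-negative 3 and 0.51 without Cre-positive 3. Dendritic cell genes had a median of 0.37, or 0.17 with 5 FPKM added, and 3 of 9 had an unadjusted p under 0.05.

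In the list of epithelium over the follicle, 2 of 8 tested genes had Cre-positive 1 and 2 as the 2 highest libraries, 0 of them at 2-fold, and 3 of 8 estimates were below 0. Gp2, the M cell receptor for bacteria, was below the filter at 1.10, 0.776 and 0.189 FPKM in Cre-positive libraries and 0.323, 0.387 and 0.174 FPKM in Cre-negative libraries. Ccl20, the chemokine of that epithelium, was 5.21, 1.94 and 1.46 FPKM in Cre-positive libraries and 1.27, 0.489 and 3.53 FPKM in Cre-negative libraries, where Cre-negative 3 exceeded Cre-positive 2. The list had a median of 0.12, which lay between 0.02 without Cre-negative 3 and 0.19 without Cre-positive 3 when 1 library was left out. Chemokines outside the follicle did not follow. Ccl25, which draws gut-homing T cells and plasma cells to the epithelium, had 321, 279 and 336 FPKM in Cre-positive libraries and 363, 288 and 336 FPKM in Cre-negative libraries, and the median of 6 tested chemokines was -0.10 (8.5e-05 after rescaling to an equal sum). Lists of other tissue parts had medians of 0.16 for plasma cells, -0.05 for general epithelium, -0.60 for ileal enterocytes, -0.20 for smooth muscle and -0.43 for adipocytes. Single libraries carried much of these values. Leaving out Cre-negative 3 gave -0.03 for enterocytes and -0.28 for adipocytes, and leaving out Cre-positive 3 gave -0.15 for enterocytes. For smooth muscle, the median became -0.07 when Cre-negative 1 was left out, -0.11 when Cre-positive 2 was and -0.31 when Cre-negative 3 was. For plasma cells, it became 0.04 when Cre-negative 3 was left out and 0.31 when Cre-negative 1 was. The epithelial median was 0.06 after rescaling to an equal sum, 0.08 with quantile normalization and 0.04 without Cre-positive 2.

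**Figure D4:**
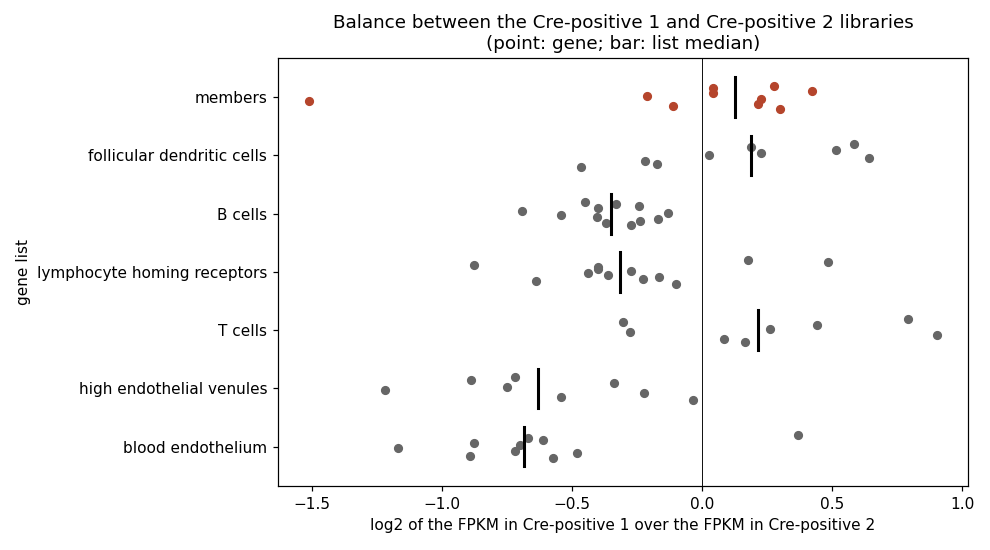
Log2 of the FPKM in Cre-positive 1 over the FPKM in Cre-positive 2 (horizontal axis), with 1 point per gene and a bar at the list median. Points right of 0 are higher in Cre-positive 1, as for most members and follicular dendritic cell genes, while all 12 B cell genes lie left of 0.

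The 2 libraries in which the pattern appeared also differed from each other. Of the 10 members, 7 were higher in Cre-positive 1 than in Cre-positive 2, against 39.9% of all tested genes, with a median ratio of 1.10 beside 0.955 over all tested genes. Of these 7, Mfge8 and Ccr7 had ratios of 1.03, and Ubd lacked the pattern. The choice of the members used their high values in these 2 libraries, so nothing is read from this contrast. Clu had the highest ratio (1.34), followed by Cxcl13 (1.23), Ubd (1.21), Madcam1 (1.17) and Ccl21a (1.16), and Glycam1 the lowest (0.351). All 12 B cell genes ran the other way, with ratios between 0.618 and 0.914, as did 10 of 12 homing receptors (median ratio 0.803) and the 8 tested venule genes (0.429 to 0.977). T cell genes had a median ratio of 1.16 and follicular dendritic cell genes one of 1.14. Lists without the pattern had ratios as high, with medians of 1.29 for smooth muscle, 1.22 for other chemokines, 1.16 for general epithelium and 1.14 for interferon-gamma and immunoproteasome genes, of which 10 of 10 were above 1. These ratios compare 1 mouse with 1 mouse, so they have no replicate check.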

How the data were processed

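RNA of whole terminal ileum from 3 Cre-positive and 3 Cre-negative mice was sequenced. Per the submitters' processing notes the builds were mm10 and GRCm38 and the tools Cuffnorm, Cufflinks, STAR, Trimmomatic, FastQC, bedtools and SAMtools, with no version or setting in the sources used here. The authors deposited 1 table of FPKM values, with 23402 genes and 1 column per library, and all 6 columns were used. As these are no counts, count models were not used. Depth and fragment numbers are estimates from the steps between low values and from GENCODE M21 transcript lengths, and cover no error other than the choice of transcript. Each library is labelled as a separate mouse, so p-values measure the spread between mice.

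The 10 genes and the 19 lists of related genes (188 entries, 4 matched by an older symbol and 1 not matched) were chosen with earlier results of these data known. The 12695 genes whose mean reached 1 FPKM were tested two-sided on log2(FPKM + 1) in R 4.3.3 with limma 3.58.1, whose variance prior followed the mean level, and p-values were adjusted over all of them by Benjamini-Hochberg at a threshold of 0.05. The fit was also run on simulated data, in which the changed genes rose in all Cre-positive libraries. Genes named are the 10 members, Il17ra, up to 4 genes per list with the smallest unadjusted p and the 12 genes nearest in profile; the other genes named from the lists (Cxcr5, Itga4, Ccrl1, Lta, Ltbr, Relb, Fut7, Sele, Pax5, Gp2, Psmb9, Prox1 and Ccl25) were chosen after their values were seen, as were Xist, Ddx3y and the copies of Ccl21a. Atoh1 was 11.5, 9.43 and 10.2 FPKM in Cre-positive and 10.0, 8.21 and 10.6 FPKM in Cre-negative libraries. Promoter sequences are from RefSeq. Alternatives were other pseudocounts, filters, scalings and variance models, a replicate block, and each library left out. Tables and plots were made with matplotlib 3.10.9, numpy 2.4.6 and pandas 2.3.3 under Python 3.11.15.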

Additional observations from a re-analysis of the deposited data

How the results depend on the processing

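The count of genes past the threshold was 0 in the main setting, without a filter, with a filter of 5 FPKM, with median-of-ratios scaling, with quantile normalization and without the trend. It was 24 with array weights, 1 with a replicate block, and 2 with a pseudocount of 0.1, with one of 5 or with libraries scaled to an equal sum. Leaving out 1 library gave between 0 and 46 genes, the highest without Cre-positive 3. Genes of the related lists past the threshold were 0 in the main setting, 1 with array weights and between 0 and 17 when 1 library was left out, again the highest without Cre-positive 3, and 0 in the other settings. The median log2 fold change of the members that passed the filter was between 0.53 (pseudocount of 5) and 1.31 (without Cre-positive 3). It covered 6 genes with the filter of 5 FPKM, 9 without Cre-positive 1, 8 without Cre-positive 2 and 10 elsewhere, and was not recomputed with array weights or without the trend. Rescaling to an equal sum moved the median of all tested genes to 0.13, from 0.03. Deviations from the group means correlated at -0.13, 0.03 and -0.11 between libraries of the same number, so the numbers were not read as pairs. The replicate block left the median of the 10 genes at 0.84. Depth limits Ccl19 and Glycam1 most, and Ccl19 and Glycam1 have an estimated 0 to 3 fragments in the libraries where they were low.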
